A study of Mus musculus with 16 samples.

Results

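This report covers the effect of fructose drinking on gene expression in the hippocampus of wild-type (WT) mice, taken from 8 of the 16 RNA sequencing libraries of the study. Its members were chosen by their labels: the 4 libraries of WT mice given fructose and the 4 libraries of WT mice given regular water. All mice of the study were male and of the C57BL/6 strain. From 3 months of age, over 6 weeks, the drinking water of the fructose group held 15% (w/v) fructose, and the control group had regular water. The other 8 libraries came from mice with a knockout of Bgn (Bgn0/- in the labels, BgnKO here) on the same drinks, 4 on each. They entered the filter on low values and the estimate of the spread, and the closing comparison with BgnKO mice. The labels number the libraries of a group as replicates and do not say that each came from its own animal, so the p-values measure the spread between these libraries, part of which may be technical. The question is which hippocampal transcripts differ after weeks of fructose intake in animals with an intact genome.

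Fructose is taken up by the transporter GLUT5 (Slc2a5) and phosphorylated by ketohexokinase (Khk), a step that bypasses the main control point of glycolysis. Most dietary fructose is cleared by gut, liver and kidney, so that little of it reaches the general circulation. The hippocampus, made of the CA fields and the dentate gyrus, serves memory formation, and its pyramidal and granule neurons depend on glutamate receptors and calcium signalling.

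Expression is given as FPKM, a read count scaled to transcript length and library size by the authors, so the number of reads behind a value is unknown and no counting interval is given. A gene was tested where its mean over the 16 libraries was at least 1 FPKM, which left 12648 genes. Fold changes are differences of mean log2(FPKM + 1), fructose minus water, with a standard error (SE) from limma, and they understate the change of genes of low level. Between 12474 and 12581 named genes reached 1 FPKM in the water libraries, and between 12372 and 12600 in the fructose libraries. Markers of the hippocampal fields were present: summed over the list, the 15 dentate granule neuron markers reached 230 to 266 FPKM on water and 244 to 318 FPKM on fructose, and the 10 CA1 markers 428 to 475 FPKM and 379 to 452 FPKM. Of 12 hypothalamus and pituitary markers, 8 stayed under 1 FPKM in all 8 WT libraries. The replicate 1 libraries stood apart from the others in both groups. The root mean square log2 difference between 2 WT libraries was taken over the tested genes without Camk2a, the only gene called (described below). It was 0.308 to 0.414 where just 1 of the 2 was a replicate 1 library. Between the replicate 1 libraries of water and fructose it was 0.245, so these were closer to each other than to the rest. Among replicates 2 to 4 it was 0.18 to 0.235 within a drink and 0.179 to 0.238 across drinks. With Camk2a left out, libraries of replicates 2 to 4 on different drinks were therefore no farther apart than those on the same drink.

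Between fructose and water in WT hippocampus, 1 gene of 12648 (0.00791%) passed the threshold, an adjusted p of 0.05 in limma with Benjamini-Hochberg adjustment. That gene was Camk2a, lower on fructose, and no gene was called higher. Every other gene had an adjusted p of 1. At an unadjusted p under 0.05 there were 263 genes (2.08%), of which 173 were higher (1.37%) and 90 lower (0.712%) on fructose. The share of 2.08% lies below the 5% that evenly spread p-values would give, and with the replicate number as a block in the fit it was 6.52% (825 genes), with the same 1 gene called. In 138 genes all 4 fructose libraries lay above all 4 water libraries (1.09%), and in 99 all lay below (0.783%). The log2 fold was above 0 in 6870 genes (54.3%), with a median of 0.0085 and a median size of 0.0577.

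The precision differed between genes. The median SE of a log2 fold was 0.103, with a 5th to 95th percentile range of 0.0617 to 0.223. The pointwise 95% interval of the fold lay wholly within 1.5-fold in either direction for 11921 genes (94.3%) and within 2-fold for 12484 genes (98.7%). Among the lists of genes and markers described further on, the median half-width of this interval was 1.07 on the log2 scale for choroid plexus markers, 0.96 for blood cell markers and 0.86 for meningeal and fibroblast markers, against 0.20 for glycolysis and TCA cycle genes. Folds of the first 3 lists are thus the least precise of these.

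**Figure D1:**
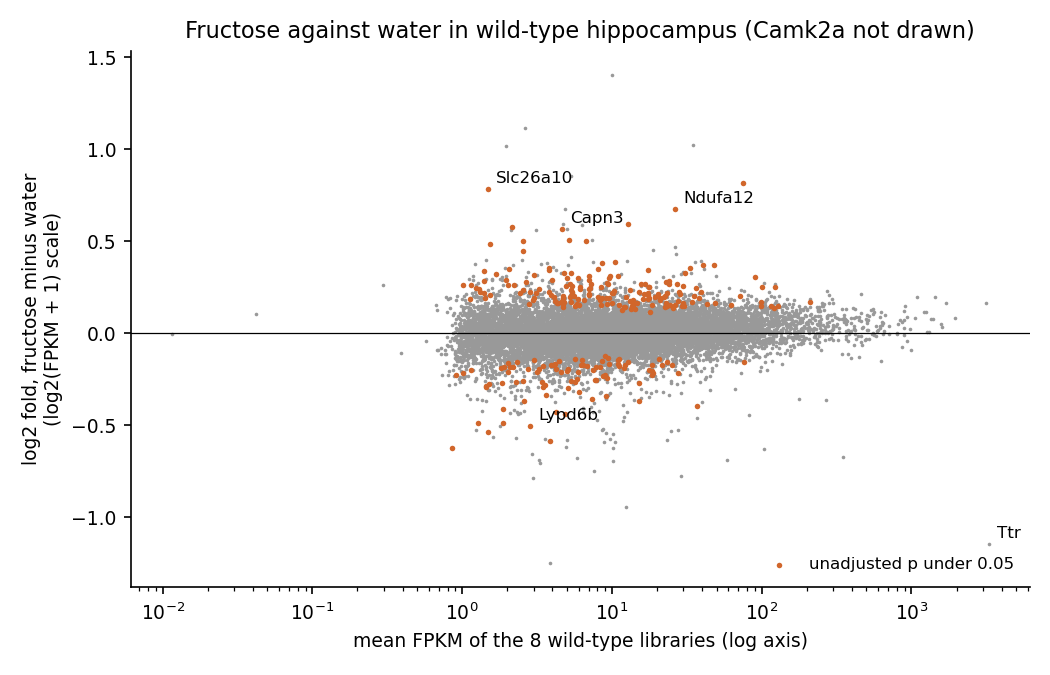
Log2 fold of fructose against water (vertical, log2(FPKM + 1) scale) by mean FPKM of the 8 WT libraries (horizontal, log axis), 1 point per tested gene, orange where the unadjusted p was under 0.05. Camk2a, and entries listed at 0 in all 8 libraries, are not drawn. Points crowd around 0 at all levels, and Ttr stands at -1.15 without an orange mark.

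Camk2a encodes the alpha subunit of calcium/calmodulin-dependent protein kinase II, an abundant kinase of excitatory synapses that is needed for long-term potentiation. Its gene lies on chromosome 18 from 60925618 to 60988152 (mm10, plus strand). In the 4 water libraries it stood at 992, 1558, 1593 and 1346 FPKM, and in all 4 fructose libraries it was listed at 0. The groups did not overlap, and the limma adjusted p was 2.24e-14. In the 8 BgnKO libraries, on either drink, Camk2a was present at 781 to 1671 FPKM, and the difference between the fructose effects of the 2 genotypes had a limma adjusted p of 2.98e-12. Markers of neurons, the cells that express Camk2a, were present in the same libraries: the 15 general neuron markers summed to 4498 to 5584 FPKM on water and 4908 to 5523 FPKM on fructose. A value of exactly 0 in a table without counts can be a failed estimate, so no fold is given. Averages of 100 FPKM or more were found for 605 genes, and besides Camk2a, 1 of these was listed at 0 in a WT library, the microRNA entry Mir137, which had a value in 1 of the 16 libraries.

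The genes beside Camk2a and the other genes of its family, named here after their values were seen, had values in every library. Camk2b, the beta subunit gene, stood at 351, 410, 426 and 414 FPKM on water and 498, 393, 439 and 423 FPKM on fructose, with overlapping groups. Camk2g, the gamma subunit gene, had 51.2 to 60.6 FPKM on water and 47.7 to 54.3 FPKM on fructose. Camk2d, the delta subunit gene, had 15.7 to 29.6 FPKM and 13.1 to 19.5 FPKM. None of these 3 passed the test, and no paralog showed the pattern of Camk2a. On the same chromosome, Rps14 (30.4 to 39.0 FPKM on water, 34.0 to 45.3 on fructose), Pdgfrb (4.05 to 6.27 and 4.37 to 6.25) and Csf1r (16.1 to 21.4 and 17.0 to 19.1) overlapped between the drinks. Of the list of 25 calcium/calmodulin kinases and phosphatases, Camk2a was the only member called, 15 had a log2 fold above 0, and the median was 0.02 (-0.00 without fructose replicate 1 and -0.02 without water replicate 4). Among its other members, Camk4, a nuclear kinase that acts on CREB, stood at 13.0 ± 0.538 FPKM on water and 11.8 ± 1.14 FPKM on fructose (SD, n = 4).

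**Figure D2:**
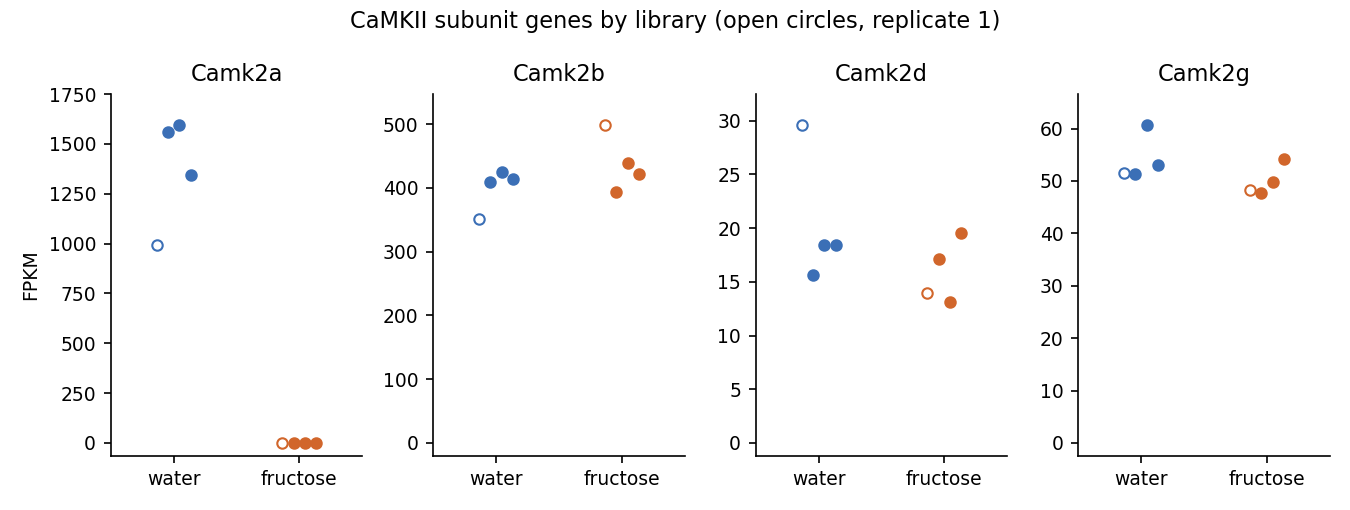
FPKM (vertical, linear, starting at about 0) of Camk2a, Camk2b, Camk2d and Camk2g in the 4 water (blue) and 4 fructose (orange) WT libraries, with replicate 1 as open circles. Camk2a is listed at 0 in the 4 fructose libraries, while the other subunit genes overlap between the drinks.

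Past Camk2a no gene was called, and the genes of smallest unadjusted p are given as values. Lypd6b, which encodes a membrane-anchored Ly6 family protein that can modulate nicotinic acetylcholine receptors (chromosome 2, 49787688 to 49948849, mm10), had the smallest. It stood at 3.51, 3.00, 3.95 and 3.47 FPKM on water and at 2.02, 2.73, 1.73 and 2.20 FPKM on fructose. The groups did not overlap, at a log2 fold of -0.50 (SE 0.11) with an unadjusted limma p of 0.000239 and an adjusted p of 1. Slc26a10, of the anion exchanger family, had the smallest p among genes higher on fructose, at 0.736, 1.46, 0.596 and 0.486 FPKM on water and 2.90, 1.88, 2.68 and 1.14 FPKM on fructose. Its highest water library lay above its lowest fructose library, and its log2 fold was 0.78 (SE 0.20).

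Capn3, a calcium-dependent cysteine protease best known in muscle, stood at 3.94, 4.57, 2.36 and 3.41 FPKM on water and 5.07, 4.97, 6.08 and 6.64 FPKM on fructose, a log2 fold of 0.57 (SE 0.16). Psrc1, a microtubule-associated protein, had 3.60 to 4.59 FPKM on water and 5.35 to 5.73 on fructose. Cys1, a protein of primary cilia, had 4.23 to 5.02 and 5.54 to 6.27 FPKM. In these 3 genes every fructose library exceeded every water library. The same held for Mad2l1, of the spindle checkpoint (2.14 to 2.53 against 2.62 to 3.26 FPKM), and for Trpc6, a cation channel gene with 2 loci in the table (4.80 to 5.69 against 5.86 to 7.89 FPKM). Nmral1, a redox sensor protein, overlapped slightly, at 5.77 to 8.18 FPKM on water and 7.96 to 10.4 on fructose. Fau (1.29 to 1.91 against 2.17 to 2.89 FPKM), Naca (2.74 to 3.58 against 3.53 to 5.03) and Rps15a-ps4 (0.705 to 1.27 against 1.48 to 2.58) also had small p-values. Copies of their sequence elsewhere in the genome make the levels of these last 3 uncertain.

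Among genes lower on fructose, Bmpr2, the type II receptor for bone morphogenetic proteins, had 20.4, 19.6, 18.7 and 21.3 FPKM on water and 18.2, 18.3, 15.4 and 17.1 FPKM on fructose. Its groups did not overlap, and its log2 fold was -0.20 (SE 0.07). The ubiquitin ligase gene Rnf150 had 12.5 to 13.8 FPKM on water and 10.6 to 11.6 on fructose, and Rnf217, of the same RING finger class, had 2.86 to 3.34 and 2.39 to 2.62. Ier3, an early response gene of stress and cytokine signalling, had 3.80 to 6.25 and 3.16 to 3.78 FPKM. All 3 were separate between the drinks, while Fchsd2 (10.8 to 12.4 against 9.84 to 11.4 FPKM), the transcription factor gene Sox5 (4.46 to 4.77 against 3.27 to 4.52), Ly6g6e (1.99 to 2.87 against 0.630 to 2.01) and Tm4sf19 (3.38 to 5.79 against 2.34 to 3.70) overlapped.

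**Figure D3:**
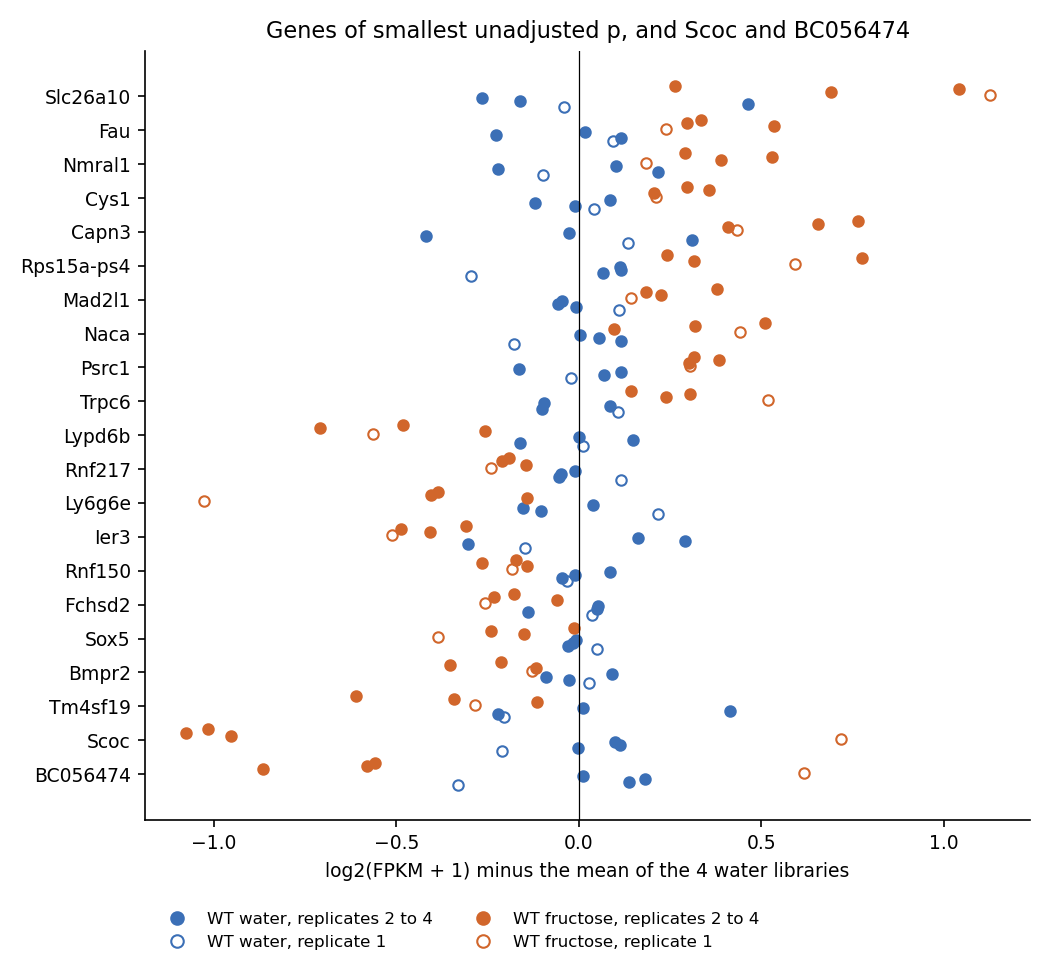
Log2(FPKM + 1) of each WT library minus the mean of the 4 water libraries (horizontal) for the genes of smallest unadjusted p and for Scoc and BC056474 (vertical), water in blue, fructose in orange, replicate 1 open. For Scoc and BC056474 the fructose replicate 1 library lies above the water libraries and the other 3 lie below.

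Scoc and BC056474, named after their values were seen, split within the fructose group. Scoc encodes a short coiled-coil protein with a role in autophagy, and it stood at 22.6, 26.3, 28.6 and 28.3 FPKM on water. On fructose it stood at 44.0 FPKM in replicate 1 and at 13.1, 11.9 and 12.5 FPKM in replicates 2, 3 and 4. BC056474 had 14.9, 21.0, 21.7 and 19.2 FPKM on water and 29.7, 9.97, 12.4 and 12.6 FPKM on fructose, so replicate 1 was again the highest of all 8 libraries and the other 3 the lowest. Over 4 libraries a group their log2 folds were -0.58 (SE 0.31) and -0.35 (SE 0.25) and neither passed. In replicates 2 to 4 alone both passed the limma test, Scoc with a log2 fold of -1.09 and an adjusted p of 0.000242 and BC056474 with -0.78 and 0.00635.

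Among genes that carry fructose into cells or metabolise it none passed the test, as for all tested genes but Camk2a. Of 37 on the list 24 passed the filter, 11 of them with a log2 fold above 0 (10 to 13 with 1 library left out), and the median was -0.01 (-0.03 to 0.01). With 2.08% of all genes at an unadjusted p under 0.05, the absence of such genes among these 24 does not set the list apart. Slc2a5 was low, at 1.65, 2.65, 2.04 and 1.54 FPKM on water and 2.22, 2.03, 2.24 and 1.89 FPKM on fructose, and its log2 fold of 0.07 had a 95% interval of -0.22 to 0.36. Khk shares an entry with the neighbouring Emilin1, at 2.83 to 3.93 FPKM on water and 3.01 to 3.27 FPKM on fructose, and the share of each gene cannot be told apart. The glucose transporter genes Slc2a1, of the blood-brain barrier and glia, and Slc2a3, of neurons, had log2 folds of -0.04 and -0.03, with 46.4 ± 8.44 and 31.9 ± 3.74 FPKM on water and 44.6 ± 5.54 and 31.2 ± 1.97 FPKM on fructose (SD, n = 4). Txnip, which is induced by sugar through the factor MondoA, stood at 10.9 ± 1.46 and 10.2 ± 1.76 FPKM. The sugar-response factor gene Mlxipl, best known in liver, did not reach the filter.

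Most genes of energy production and translation had a log2 fold above 0 over the 8 libraries, without any call. Of 37 complex I subunits of the respiratory chain 31 had a log2 fold above 0, against 54.3% of all genes, with a median of 0.08. Of 37 subunits of complexes III, IV and V it was 31, with a median of 0.03, and of 38 glycolysis and TCA cycle genes 26, with a median of 0.02. With 1 library left out the count was 23 to 33 for complex I, 19 to 33 for complexes III to V and 18 to 28 for glycolysis and TCA cycle. For complexes III to V it was 20 without fructose replicate 1 and 19 without water replicate 4, close to the share among all genes. The glycolysis median was -0.00 without fructose replicate 3. Ndufa12, an accessory subunit of complex I, had 17.6, 19.7, 19.5 and 20.6 FPKM on water and 22.0, 44.3, 45.0 and 22.3 FPKM on fructose. Its fructose libraries fell into a high and a low pair, and both lay above all water libraries, at a log2 fold of 0.68 (SE 0.25). The BgnKO libraries were also uneven for Ndufa12, at 31.0, 31.0, 18.2 and 19.3 FPKM on water and 24.4, 32.2, 29.7 and 17.5 FPKM on fructose. Ndufa5 had 126 to 140 and 140 to 167 FPKM, and the glycolytic gene Pfkl 54.6 to 60.7 and 61.1 to 68.4 FPKM.

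Of 65 cytosolic ribosomal protein genes tested 54 had a log2 fold above 0, with a median of 0.11, and 7 had an unadjusted p under 0.05, all of them higher, against 1.37% of all genes. Fau, given among the genes of smallest p, is on this list, with a log2 fold of 0.35 (SE 0.10). The median shift of the list, measured for each library from the water mean, ran from -0.13 to 0.12 over the water libraries and from 0.03 to 0.18 over the fructose libraries, so the groups overlapped. With 1 library left out 45 to 54 members had a log2 fold above 0. Many of these genes have processed pseudogenes, and their single levels are uncertain. Members of a list share libraries and vary together, so these counts describe the 8 libraries.

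Insulin signalling and lipid synthesis genes had folds above 0 less often than not. In insulin and IGF signalling 14 of 44 had a log2 fold above 0 (median -0.03), in cholesterol biosynthesis 8 of 26 (median -0.03) and in fatty acid synthesis and oxidation 13 of 39 (median -0.02), and no gene in them was called. With 1 library left out these counts were 11 to 19, 6 to 13 (13 without fructose replicate 2) and 12 to 18. The insulin receptor gene Insr stood at 5.43 ± 0.44 FPKM on water and 5.11 ± 0.271 FPKM on fructose, and Igf1r at 6.95 ± 0.397 and 6.73 ± 0.415 FPKM (SD, n = 4). For both the 95% interval of the log2 fold lay within -0.23 to 0.12. Igf1 had 1.17 to 1.68 and 1.28 to 1.5 FPKM. Grb14, an adaptor that inhibits the insulin receptor, was the 1 member with an unadjusted p under 0.05, with 14.1 to 18.2 FPKM on water and 16.8 to 19.9 FPKM on fructose. Insig1, which holds the sterol sensor in the endoplasmic reticulum, had 44.2, 35.6, 36.9 and 35.5 FPKM on water and 37.6, 31.8, 32.0 and 31.9 FPKM on fructose, with replicate 1 the highest library of both groups. Ppargc1a, a coactivator of mitochondrial biogenesis, had 11.3 to 12.5 and 8.71 to 12.2 FPKM.

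Genes induced by neuronal activity varied widely within the fructose group. Of 38 immediate early genes 9 had a log2 fold above 0, with a median of -0.08 (5 without water replicate 2 and 14 without fructose replicate 3). None of them had an unadjusted p under 0.05, against 2.08% of all genes. Fos stood at 8.96, 11.2, 9.04 and 13.9 FPKM on water and at 4.75, 9.25, 4.62 and 11.3 FPKM on fructose. Egr1, a transcription factor gene, had 87.9 to 111 FPKM on water and 63.2 to 134 FPKM on fructose. Arc, a gene of synaptic plasticity, had 61.2, 91.0, 66.0 and 80.2 FPKM and 46.3, 87.4, 52.4 and 113 FPKM. In all 3 genes the fructose replicates 1 and 3 were the lowest of the 8 libraries and fructose replicate 4 was among the highest 2 of each. Junb had 44.0 to 56.1 and 32.0 to 50.6 FPKM.

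Receptors and release genes of the synapse showed no call either. Of 29 ionotropic glutamate and GABA-A receptor genes 12 had a log2 fold above 0 (median -0.04), of 45 metabotropic receptor genes 19 (median -0.03) and of 46 presynaptic release genes 18 (median -0.04). The presynaptic count was 24 (median 0.02) without fructose replicate 1 and 9 without water replicate 1, and the metabotropic median was 0.00 without fructose replicate 1. Gria1, the GluA1 subunit of AMPA receptors, had 176, 208, 206 and 205 FPKM on water and 232, 218, 225 and 218 FPKM on fructose. The groups did not overlap, at a log2 fold of 0.17 (SE 0.08), and the lowest value was that of water replicate 1. Grik4, a kainate receptor subunit of CA3 neurons, had 13.3 to 16.2 and 15.3 to 18.5 FPKM. Grm4, a presynaptic glutamate autoreceptor, had 5.22 to 6.34 FPKM on water and 4.35 to 5.51 FPKM on fructose. Drd1a, a dopamine receptor gene and also a striatal marker, had 1.31 to 2.15 and 0.929 to 1.56 FPKM. Of 53 potassium channel genes 21 had a log2 fold above 0. Kcnip2, an auxiliary subunit of A-type channels (58.9 to 71.0 FPKM on water, 71.3 to 81.1 on fructose), and Kcnh7, of the ERG family (4.78 to 7.06 and 3.62 to 4.76), were separate between the drinks. In the neurotrophin and CREB list 9 of 22 had a log2 fold above 0, with a median of -0.02 that was 0.00 without water replicate 4. Bdnf, a growth factor of synaptic plasticity, had 10.9 ± 1.2 FPKM on water (SD, n = 4) and 14.8, 10.2, 9.65 and 9.99 FPKM on fructose, where replicate 1 was the highest of all 8.

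Stress, clock and immune genes gave small differences. Of 41 unfolded protein response and heat shock genes 27 had a log2 fold above 0 (median 0.06). Eif2ak3, the stress sensor kinase PERK, was lower on fructose in all 4 libraries, at 6.52, 6.67, 6.75 and 6.94 FPKM on water and 6.14, 5.46, 6.03 and 6.33 FPKM on fructose (log2 fold -0.15, SE 0.06), whereas Creld2, a stress-induced chaperone gene, had 7.37 to 8.33 and 7.89 to 9.84 FPKM. The 36 antioxidant and metallothionein genes had a median of -0.00, with 16 above 0 and 26 without fructose replicate 4. Of 23 circadian clock genes 7 had a log2 fold above 0 (median -0.04), which was 11 (median -0.00) without fructose replicate 1 and 4 without fructose replicate 4. Dbp, a clock output factor, had 33.8, 36.5, 52.4 and 47.8 FPKM on water and 30.6, 34.6, 37.0 and 25.5 FPKM on fructose, with overlap. Rora, an activator of the clock gene Arntl, had 5.88 to 7.90 and 3.96 to 6.08 FPKM. In the glucocorticoid list 12 of 20 had a log2 fold above 0, with a median of 0.02 (-0.01 without water replicate 2), and its target Fkbp5 had 12.8 to 18.8 FPKM on water and 14.5 to 17 FPKM on fructose. In the Toll-like receptor, NF-kB and cytokine list 29 of 50 passed the filter, 16 with a log2 fold above 0 and a median of 0.03 (-0.01 without water replicate 1). Irf3, a factor of the interferon response, had 5.45 to 7.69 and 7.11 to 8.01 FPKM. The cytokine gene Il1b, at 0.0744 to 0.227 FPKM on water and 0.0454 to 0.103 FPKM on fructose, was below the filter. Of 38 TGF-beta and BMP genes 9 had a log2 fold above 0 (median -0.06), which was 15 without fructose replicate 1 and 14 without water replicate 4. Among them was Bmp1, a procollagen protease, at 7.53 to 11.1 FPKM on water and 9.92 to 14.9 FPKM on fructose.

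Bgn, the gene that the study's knockout targets, and Fmod were lowest in 1 fructose library. Bgn, which encodes the small proteoglycan biglycan and has 2 loci in the table, had 9.94, 11.7, 17.7 and 24.2 FPKM on water and 5.42, 20.7, 21.2 and 17.2 FPKM on fructose, with a log2 fold of -0.05 (SE 0.34). Fmod, encoding the related fibromodulin, had 7.20, 3.98, 14.0 and 14.6 FPKM on water and 1.44, 12.9, 10.2 and 13.5 FPKM on fructose. For both genes fructose replicate 1 was the lowest of the 8 libraries. Of 18 collagen genes 6 had a log2 fold above 0 (median -0.03), and without fructose replicate 1 it was 14 of 18 (median 0.10) and without water replicate 4 it was 10 (median 0.04). Of 33 proteoglycan and link protein genes 15 had a log2 fold above 0 (median -0.02), which was 23 (median 0.05) without fructose replicate 1, and the median was 0.02 without water replicate 3 or 4. Col4a2, of vascular basement membranes, had 6.58 to 9.51 FPKM on water and 9.35 to 10.2 FPKM on fructose, where replicate 1 stood at 9.69 FPKM and was not low.

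Markers of tissues that adjoin the hippocampus were lowest in the same library. All 25 choroid plexus markers had a log2 fold below 0, with a median of -0.59. The summed FPKM of the list was 3606, 6714, 2911 and 5096 on water and 366, 5063, 4507 and 2603 on fructose, so fructose replicate 1 stood far below the other 7. Ttr, the transthyretin gene that choroid plexus makes in bulk, had 3110, 5957, 2457 and 4134 FPKM on water and 212, 4367, 3934 and 2147 FPKM on fructose. Igf2, which choroid plexus and meninges express, had 35.3, 57.3, 67.3 and 109 FPKM on water and 7.61, 70.8, 64.3 and 57 FPKM on fructose. None of the 25 markers was at 0 in all 8 libraries, and none had an unadjusted p under 0.05, against 2.08% of all genes. Without fructose replicate 1 the list's median was -0.17 with 4 of 25 above 0, in replicates 2 to 4 alone -0.29 with 0 of 25, and without water replicate 4 -0.31 with 1 of 25. The meningeal and fibroblast list was also low in that library, and its summed FPKM was 249 to 430 on water, 65.8 in fructose replicate 1 and 296 to 362 in the other fructose libraries. Its median log2 fold was -0.16 with 4 of 19 above 0, and without fructose replicate 1 it was 0.16 with 17 of 19 above 0. The count was 8 without water replicate 4 (median -0.04) and 2 without water replicate 2 or fructose replicate 3. The part of these tissues in the values of Bgn, Fmod, Igf2 and the collagens was not tested. In bulk tissue fewer cells of a type and less RNA per cell cannot be told apart.

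**Figure D4:**
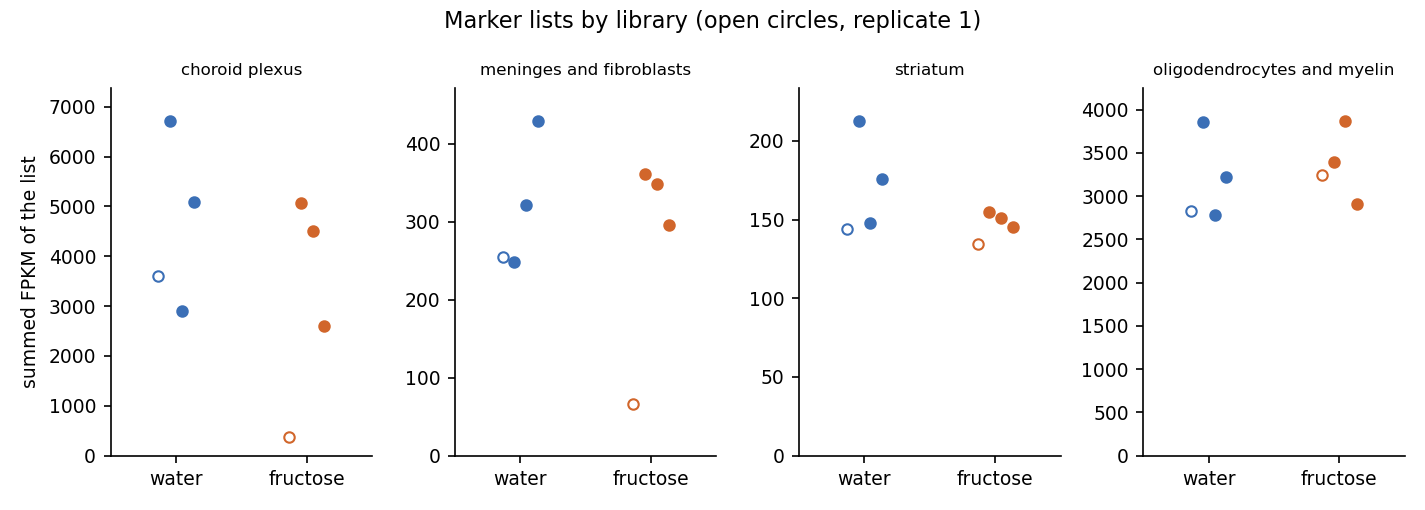
Summed FPKM (vertical, from 0) of 4 marker lists in the 4 water (blue) and 4 fructose (orange) WT libraries, with replicate 1 as open circles. Fructose replicate 1 is at 366 FPKM for choroid plexus and 65.8 FPKM for meninges and fibroblasts, below all other libraries, while myelin markers overlap between the drinks.

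Markers of brain cells differed less. All 14 striatal markers that passed the filter had a log2 fold below 0, with a median of -0.20, and in replicates 2 to 4 alone 1 was above 0 and the median was -0.19. Without water replicate 2 the median was -0.07. Their summed FPKM was 144, 213, 148 and 176 on water and 135, 155, 151 and 145 on fructose, so the groups overlapped. Tac1, a neuropeptide gene, had 4.5 to 6.10 FPKM on water and 3.92 to 4.23 FPKM on fructose, with no overlap. The part of striatal tissue in the values of Drd1a was not tested. Of 21 oligodendrocyte and myelin markers 19 had a log2 fold above 0 (median 0.11). That count was 14 without water replicate 1 (median 0.08) and 16 without fructose replicate 1 or 3. The sum of these markers was 2788 to 3852 FPKM on water and 2908 to 3869 FPKM on fructose. Mbp, a major myelin protein gene, had 1105, 1701, 1263 and 1320 FPKM on water and 1524, 1464, 1871 and 1299 FPKM on fructose.

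Dentate granule neuron markers had 12 of 15 above 0 (median 0.10) and CA3 and CA2 markers 10 of 11 (median 0.09). For both lists fructose replicate 1 had the largest median shift, at 0.36 and 0.25, while the other 3 fructose libraries lay between -0.00 and 0.08 and between -0.01 and 0.05. CA1 markers had 3 of 10 above 0 (median -0.07), and general neuron markers 11 of 15 (median 0.07), which was 7 (median -0.03) without water replicate 1. Dcn is on both the CA1 list and the meningeal and fibroblast list, and the part of meningeal tissue in the CA1 values was not tested. Trpc6, given among the genes of smallest p, and Lct (5.69 to 8.05 FPKM on water, 6.80 to 8.32 on fructose) are on the dentate list, and the part of these neurons in their values was not tested. Interneuron markers had 4 of 19 above 0 (median -0.10), which was 9 without fructose replicate 1 (median -0.06) or without water replicate 3 (median -0.07). Erbb4, a neuregulin receptor of interneurons, had 7.20 to 9.37 and 5.17 to 7.36 FPKM, whereas Calb2, the calretinin gene, had 31.6 to 38.0 FPKM on water and 36.9 to 54.3 FPKM on fructose. Of 18 astrocyte markers 8 had a log2 fold above 0 (median -0.01), and 5 without fructose replicate 4. The astrocyte median ran from -0.04 to 0.02 with 1 library left out. Gfap, the astrocyte filament gene, had 76.3 to 106 and 95.9 to 115 FPKM, and Slc4a4, a bicarbonate cotransporter, 27.3 to 31.8 and 23.2 to 27.2. Microglia and macrophage markers had 13 of 18 above 0 (median 0.07), but 8 (median -0.01) without water replicate 1 and a median of -0.00 without fructose replicate 3. Endothelial markers had 4 of 15 above 0 (median -0.08), but 8 (median 0.00) without fructose replicate 1 and 2 without water replicate 2. Neocortical markers had 3 of 14 above 0 (median -0.12), but 6 (median -0.01) without fructose replicate 1, 5 without water replicate 3 and 1 without fructose replicate 4. Pericyte markers had 5 of 12 above 0 (median -0.02), but 12 (median 0.14) without fructose replicate 1, 11 (median 0.10) without water replicate 4 and 8 (median 0.02) without water replicate 3. Thalamic markers had 5 of 11 above 0 (median -0.03), but 8 (median 0.07) without fructose replicate 1 and 3 (median -0.10) without fructose replicate 3, and the median was also above 0 without water replicate 1 or 4. Ependymal markers had 6 of 10 above 0 (median 0.09), but 3 (median -0.08) without water replicate 3. The microglial, endothelial, neocortical, pericyte, thalamic and ependymal lists thus rest on single libraries for their counts or directions. With 1 library left out the dentate count was 12 to 14 and the CA1 count 2 to 4. The CA3 and CA2 count was then 7 to 10, with 7 of 11 (median 0.03) without fructose replicate 1. It was 6 of 11 in replicates 2 to 4 alone, close to the 54.3% among all genes. Progenitor markers had 3 of 11 above 0 with any 1 library left out, but 5 in replicates 2 to 4 alone. The summed FPKM of the progenitor list was 127 to 145 on water and 133 to 147 on fructose, so the groups overlapped. Calb2, given above with the interneuron markers and higher on fructose, is also on this list and makes up a large part of that sum. Precursor markers of oligodendrocytes had 6 of 9 above 0 (median 0.05), with a median of -0.00 without water replicate 1. All 3 blood cell markers that passed the filter were lower on fructose, and the high library was water replicate 4, where the joined beta-globin entry stood at 574 FPKM against 78.5 to 150 FPKM in the other 7. Without that library all 3 had a log2 fold above 0 (median 0.24).

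**Figure D5:**
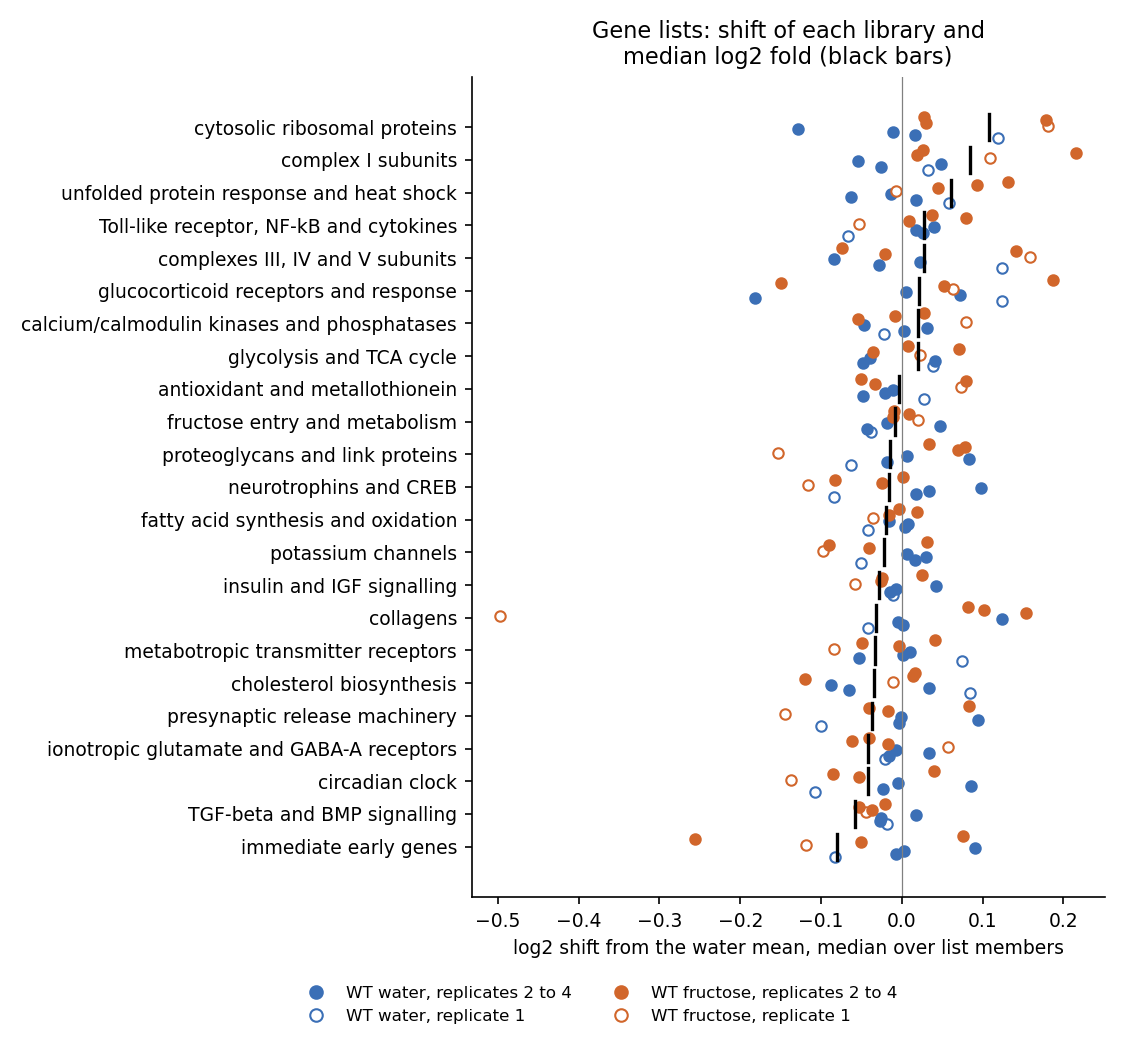
Median log2 shift of each list's members from the water mean (horizontal) for the 4 water (blue) and 4 fructose (orange) WT libraries in 23 gene lists (vertical), replicate 1 open, with the list's median log2 fold as a black bar. Medians run from -0.08 for immediate early genes to 0.11 for ribosomal proteins, and the collagens of fructose replicate 1 lie at -0.50.

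Across the 43 lists 1022 entries were tested, 29 had an unadjusted p under 0.05 and only Camk2a was called. Of the list members 37 share an entry with another gene. The same contrast in BgnKO mice, fructose against water, had 0 genes called by limma and 1630 at an unadjusted p under 0.05 (12.89%). The difference between the fructose effects of the 2 genotypes was tested as an interaction: Camk2a alone passed (0.00791% of genes), and 368 genes had an unadjusted p under 0.05 (2.91%). For Lypd6b the log2 fold of fructose was -0.50 in WT and -0.03 in BgnKO, and for Slc26a10 0.78 and 0.08. For Bmpr2 it was -0.20 and -0.16. These genes were picked by their p in WT, and no interaction other than that of Camk2a passed after adjustment. On water Lypd6b reached at most 2.02 FPKM in BgnKO, against 3.00 to 3.95 FPKM in WT. WT fructose held 1.73 to 2.73 FPKM. Slc26a10 had 1.38 to 1.98 FPKM in BgnKO water and 0.486 to 1.46 FPKM in WT water. Bmpr2 had 18.4 to 21.4 and 18.7 to 21.3 FPKM. The difference between the genotypes on water was not tested.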

How the data were processed

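Polyadenylated RNA of 16 hippocampus libraries was sequenced. Per the submitters' processing notes, TopHat, Bowtie, Cufflinks and Cuffdiff were used with mm10. Versions, annotation, strand setting and normalization are not given in the sources used here. The values are the FPKM that the authors deposited for 27670 loci. The 4269 loci without a gene name were left out, loci of 1 name were summed (711 names), and entries joining several names (659) were kept whole. Positions are from GENCODE vM21 (GRCm38, the assembly of mm10).

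limma 3.58.1 in R 4.3.3 (eBayes with trend) was fitted to log2(FPKM + 1) with 4 group means over 16 libraries, for genes averaging 1 FPKM or more, and p-values were adjusted by Benjamini-Hochberg over 12648 genes (threshold 0.05). The script was tested on simulated data. Depth is unknown. The text names genes called, the 10 of smallest p in each direction where fewer were called (predicted genes named Gm or Rik left out), members of each list by smallest p, 20 fixed genes, and genes at 0 in a group. Some genes that this rule selects are not reported here. The members and lists were chosen with earlier results of these data known. The labels give both groups the replicate numbers 1 to 4. Same-number libraries deviated together from their group means in every pair (correlation 0.118 to 0.700, Camk2a left out). Replicate 1 stood apart in both groups, which by itself moves both group means and so the deviations of the other libraries. In replicates 2 to 4 alone the correlation was 0.003 to 0.135. These values therefore cannot show that the numbers pair the samples, and the main fit held no term for the replicate number. Alternatives were other pseudocounts, filters and scalings, the 8 WT libraries alone, a replicate block, a term for replicate 1, replicates 2 to 4, and each library left out.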

Additional observations from a re-analysis of the deposited data

Results flagged for a closer look

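Within a group of 4 libraries, 1 library stood far from the other 3 in 26 of 336 groups checked. Chance alone flags about 1 group in 20, but 7 of the 26 belong to genes named because their folds were large or because replicates 2 to 4 differed from replicate 1, so the 2 rates cannot be compared. Fructose replicate 1 was the separate library in 9 of the 26 and water replicate 1 in 3.

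In fructose replicate 1 the values that stood apart were Insig1 at 37.6 FPKM (others 31.8 to 32.0), Pvrl3 at 16.6 FPKM (others 10.9 to 11.6), Bdnf at 14.8 FPKM (others 9.65 to 10.2), Slc13a4 at 1.37 FPKM (others 10.7 to 12.5), Scoc at 44.0 FPKM (others 11.9 to 13.1) and BC056474 at 29.7 FPKM (others 9.97 to 12.6). The joined entry of Cdk9, Mir2861 and Mir3960 stood at 189.8 FPKM there (others 12.2 to 13.7), and Mir199b at 20.9 FPKM with the others listed at 0. The summed FPKM of the insulin and IGF signalling list was 966 there against 1142 to 1155. In water replicate 1 they were Rps15a-ps4 at 0.705 FPKM, Insig1 at 44.2 FPKM and Gria1 at 176 FPKM.

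In water replicate 2 they were Fchsd2 at 10.8 FPKM, Lct at 8.05 FPKM and the joined entry of Mir1940 and Snora47 at 30.9 FPKM with the others listed at 0. Water replicate 4 held Slc2a12 at 4.90 FPKM, Alas2 at 7.43 FPKM, the beta-globin entry (Beta-s, Hbb-b1, Hbb-b2) at 573.8 FPKM and a summed blood cell list of 712 FPKM against 104 to 180. Fructose replicate 2 held the entry of Mirlet7b and Mirlet7c-2 at 70.8 FPKM, and fructose replicate 3 held Psrc1 at 5.73 FPKM and Vcan at 2.03 FPKM. Fructose replicate 4 held Doc2a at 8.13 FPKM, the entry of Gm1604b and Rps6ka2 at 10.4 FPKM, Kcnh7 at 4.76 FPKM and Snora31 at 15.7 FPKM with the others listed at 0.

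The listed values of Camk2a gave an interaction of genotype and fructose with an adjusted p of 2.98e-12 in limma. It rests on values of 0 in the 4 WT fructose libraries, which can be a failed estimate, so a differing effect of fructose is not shown.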

How the results depend on the processing

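The count of 1 called gene, Camk2a, held under the settings run except replicates 2 to 4 alone, which called 3 genes (Camk2a, Scoc and BC056474). The number of genes at an unadjusted p under 0.05, 263 of 12648, moved more. It was 168 with a filter of 5 FPKM, 520 with no filter and 490 in replicates 2 to 4. With a term for replicate 1 it was 728, and with the replicate block, which changed no call, 825 (6.52%). Leaving out each library in turn gave 128 to 415, the lowest without water replicate 4 (128) and fructose replicate 3 (129) and the highest without water replicate 2 (415). Why the counts moved was not tested. Of 2218 values of 125 named genes under the alternatives, 2163 stayed within the spread, and 42 had another sign than the value reported. Of 773 list medians 53 had another sign. FPKM carries no depth, so counting error is unknown. Small differences are bounded only by the intervals of 4 libraries a group.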

Other observations

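An entry more than 5 times its second highest WT library, with at least 10 FPKM, was found 3 times: Cdk9, Mir2861 and Mir3960 in fructose replicate 1 (189.8 FPKM, second 14.3), Mir5121, Rpl13a and Snord33 in water replicate 2 (480.6 FPKM, second 58.2) and Mirlet7b and Mirlet7c-2 in fructose replicate 2 (70.8 FPKM, second 1.88). Each joins a small RNA with other genes. Together with Camk2a, Mir1940 with Snora47, Mir199b, Snora31 and Ttr, 2 of these make up the 7 entries with a log2 fold beyond 1 in either direction. Rn45s, an unprocessed ribosomal RNA, stood at 386 to 869 FPKM on water and 373 to 1085 FPKM on fructose in WT and was listed at 0 in all 8 BgnKO libraries. Loci without a gene name took 51.0 to 55.5% of the FPKM in the water libraries and 46.8 to 59.9% in the fructose libraries.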
